A study of Mus musculus with 12 samples.

Results

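The 10 genes described here encode the TNF receptors and the proteins that carry or restrain their signal inside the cell. They are Tnfrsf1a, Tnfrsf1b, Tradd, Ripk1, Traf1, Traf2, Tnfaip3, Tnip1, Birc3 and Cflar. They were chosen by symbol, as known members of the pathway and with earlier results of these data in view, and all 10 were found among the 48526 genes of the count table. All 10 also passed the filter on low counts, which left 15523 genes for testing. They were measured by RNA-seq of total RNA from BMDMs, macrophages that are grown in culture from mouse bone marrow. HSS9 KO mice, homozygous for a deletion upstream of Tnf, were compared with WT (HSS9+/+) mice, and cells of both genotypes were either stimulated with LPS for 6 hr (LPS) or given PBS for the same time (UT). Each of the 4 groups had 3 libraries, numbered by batch. The mice were male and 7 to 10 weeks old, marrow of femur and tibia was grown for 6 days in L929-conditioned medium, and neither genotype carried any other engineered allele by the labels. WT mice are littermates by the labels, but the study's methods name purchased C57BL/6 mice, without saying which experiments used them, and a KO line bred from homozygous pairs, so a shared genetic background is not assured. Separate animals behind the 3 libraries of a group are not stated, so p-values measure the spread between these libraries.

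TNF signals through a pair of receptors. TNFR1, encoded by Tnfrsf1a, has a death domain and recruits the adaptor TRADD, the kinase RIPK1, the adaptor TRAF2 and the ubiquitin ligases of the cIAP family, and ubiquitin chains on this complex switch on NF-kappaB and MAP kinases. The same receptor can instead lead to caspase-8 activity and cell death, which cIAP proteins and the caspase-8 regulator cFLIP hold back. TNFR2, encoded by Tnfrsf1b, lacks a death domain and recruits TRAF2, and TRAF1 along with it. Tnfaip3 encodes A20 and Tnip1 encodes its partner ABIN1, which bind or edit ubiquitin chains and restrain the signal, and several of these genes are themselves known NF-kappaB targets. LPS acts through TLR4, and macrophages stimulated with it make TNF, so that LPS and TNF reach the same NF-kappaB pathway.

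Library totals ranged from 26154533 to 36423921 counts, and no library held fewer than 442 counts of any of the 10 genes. Expression was given as CPM, the counts of a gene relative to all counts of its library, after TMM scaling. The identity of the cells was checked on marker genes, and all 10 macrophage markers were kept by the filter, with a summed level of 28280.7 to 34695.8 CPM per library. The 7 stromal cell markers, of which 6 were kept and 0 were at 0 throughout, summed to 4.82 to 5.32 CPM in WT UT, 5.2 to 6.82 CPM in KO UT, 21.9 to 24.1 CPM in WT LPS and 26.9 to 28.9 CPM in KO LPS. Pdgfrb made up most of this sum after LPS (19.8 and 19.7 CPM), and Col1a1, Col1a2, Col3a1 and Dcn were higher in KO LPS than in WT LPS, by 1.19 to 1.58 on the log2 scale. Markers of T cells summed to at most 3.41 CPM, of dendritic cells to at most 3.04 CPM and of B cells to at most 1.79 CPM. Of the 8 neutrophil markers 6 were kept and Ly6g was at 0 in every library. The neutrophil sum was 20.5 to 22 CPM in WT UT, 42.6 to 48.1 CPM in KO UT, 50.5 to 79.6 CPM in WT LPS and 67.3 to 76.8 CPM in KO LPS. Small structured RNAs took 4.30 to 4.48% of counts in WT UT, 8.04 to 9.14% in KO UT, 4.97 to 7.71% in WT LPS and 4.33 to 4.43% in KO LPS. Tnf itself, downstream of the deletion, stood at 889.7 ± 57.4 CPM in WT LPS and 432 ± 15.2 CPM in KO LPS (SD, n = 3), and at 15.3 ± 0.757 CPM in WT UT and 9.71 ± 0.727 CPM in KO UT.

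Sequences around the transcription starts are shown for the 3 genes whose KO and WT levels differed after LPS by the test given further on. They run from 250 bases before to 50 bases after the start, on the strand of the gene, and come from RefSeq on GRCm38.p6. Capitals mark matches to the NF-kappaB consensus on either strand and to the AP-1 motif TGANTCA, and a stretch covered by overlapping matches is marked once. The Tnfaip3 sequence lies at chr10:19015361-19015660, the Tnip1 sequence at chr11:54962891-54963190 and the Traf1 sequence at chr2:34961723-34962022, all on the minus strand.
Tnfaip3: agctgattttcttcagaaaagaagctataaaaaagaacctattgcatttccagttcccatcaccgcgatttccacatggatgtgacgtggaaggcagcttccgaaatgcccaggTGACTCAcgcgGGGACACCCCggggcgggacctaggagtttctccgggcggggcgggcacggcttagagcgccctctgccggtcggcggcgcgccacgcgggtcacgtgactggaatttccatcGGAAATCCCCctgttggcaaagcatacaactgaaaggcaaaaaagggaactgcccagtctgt
Tnip1: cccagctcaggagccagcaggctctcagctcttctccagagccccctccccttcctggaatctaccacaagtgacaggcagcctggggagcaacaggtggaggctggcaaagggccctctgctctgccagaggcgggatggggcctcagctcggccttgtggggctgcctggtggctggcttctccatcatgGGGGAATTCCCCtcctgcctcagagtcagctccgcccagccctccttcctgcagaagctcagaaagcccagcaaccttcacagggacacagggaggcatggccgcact
Traf1: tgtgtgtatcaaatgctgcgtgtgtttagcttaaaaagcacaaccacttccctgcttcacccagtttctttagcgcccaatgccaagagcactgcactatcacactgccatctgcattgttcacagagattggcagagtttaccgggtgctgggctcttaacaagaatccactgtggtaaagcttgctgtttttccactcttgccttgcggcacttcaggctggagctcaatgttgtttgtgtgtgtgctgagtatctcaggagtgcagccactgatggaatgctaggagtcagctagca

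The printed Tnfaip3 sequence held 2 NF-kappaB matches, GGGACACCCC at bases -125 to -116 and GGAAATCCCC at -12 to -3, whose complement on the other strand is the match, and 1 AP-1 match, TGACTCA at -136 to -130. RefSeq lists another Tnfaip3 start downstream, whose window at chr10:19011914-19012213 held no match to either motif. In Tnip1 the marked stretch, from -58 to -47, is a set of overlapping NF-kappaB matches. No match to either motif lay in the Traf1 window. RefSeq start sequences were at hand for 9 of the 10 genes, with Tradd the gene without one, and Tnfaip3 and Tnip1 were the 2 genes with an NF-kappaB match. The 9 genes had 11 start sequences between them. Among all 32851 start sequences searched the same way, counted by sequence and not by gene, 4.51% held an NF-kappaB match and 7.81% an AP-1 match. A match says that these letters are present, not that the site is used.

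Levels between genes were compared per length, as CPM per kb of exon. In WT UT cells Tnfrsf1b was the most abundant of the 10 genes, at 163.5 ± 1.62 CPM per kb (SD, n = 3), ahead of Tnfrsf1a at 24.1 ± 0.481 CPM per kb. Birc3, which encodes the ubiquitin ligase cIAP2, came next at 17.7 ± 0.876 CPM per kb. Tnip1, Tradd, Ripk1, Cflar, Tnfaip3 and Traf2 followed, between 11.1 and 3.47 CPM per kb, and Traf1 was lowest at 2.45 ± 0.0721 CPM per kb. In KO UT cells the order was the same except that Tradd, at 10.8 ± 0.6 CPM per kb, stood above Tnip1, at 9.32 ± 0.292 CPM per kb. No neighbours in either UT order had overlapping libraries.

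After LPS the order was a different one. Tnfrsf1b remained highest, at 1029.6 ± 53.3 CPM per kb in WT and 1123.8 ± 40.7 CPM per kb in KO. Tnfaip3 moved from eighth to second place, at 202.8 ± 9.53 CPM per kb in WT and 164.9 ± 3.4 CPM per kb in KO. Tnip1 and Cflar, which encodes cFLIP, came next and had overlapping libraries in both genotypes, so their order is not resolved. They were followed by Birc3, Tnfrsf1a, Traf1, Traf2, Tradd and Ripk1, with no overlap between neighbours. Tradd, at 11.9 ± 1.54 CPM per kb, and Ripk1, at 7.38 ± 0.261 CPM per kb in WT, were the lowest pair. Summed over the 10 genes, the level per length was 250.5 ± 1.54 in WT UT, 213.8 ± 3.48 in KO UT, 1646.6 ± 80.4 in WT LPS and 1679.8 ± 52.9 in KO LPS. Tnfrsf1b made up 65.3% of this sum in WT UT, 61.8% in KO UT, 62.5% in WT LPS and 66.9% in KO LPS. The share of Tnfaip3 was 1.99% in WT UT and 12.3% in WT LPS, against 2.31% and 9.82% in KO cells.

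**Figure D1:**
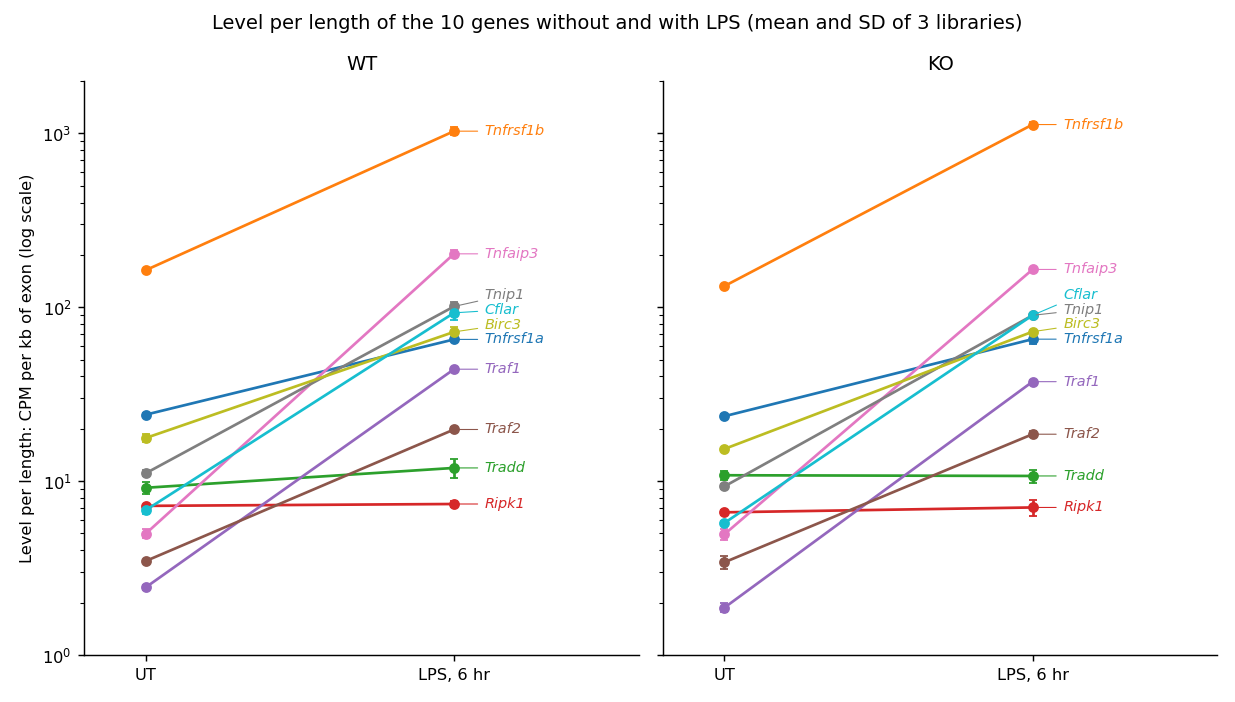
Level per length (CPM per kb of exon, log axis) of the 10 genes without and with LPS in WT (left) and KO (right). Points are means and bars SD of 3 libraries. Tnfrsf1b is highest throughout, at 163.5 and 1029.6 in WT, Tnfaip3 climbs from 4.99 to 202.8 in WT, and the lines of Tradd and Ripk1 stay near level.

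LPS raised most of the 10 genes in both genotypes. In WT cells 9 of the 10 genes passed the test (edgeR quasi-likelihood test, adjusted p below 0.05) and all 9 were higher after LPS, while 38.0% of all genes tested were higher and 35.3% lower. Of these, 8 were also past a log2 fold change of 1, which 19.1% of all genes tested were. In KO cells 8 of the 10 passed, all of them higher and all past a log2 fold change of 1, against 35.1% of all genes higher, 37.7% lower and 17.7% higher past that fold. The median log2 fold change of the 10 genes was 2.59 in WT, where the median of all genes was 0.05, and 2.77 in KO, where it was -0.06. In bulk RNA a change in the number of cells that express a gene and a change in RNA per cell cannot be told apart.

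Of the receptors, Tnfrsf1b responded more than Tnfrsf1a. Tnfrsf1b stood at 631.1, 619.0 and 622.8 CPM in the WT UT libraries (in batch order) and at 4163.6, 3787.9 and 3841.0 CPM in the WT LPS libraries. In KO it stood at 505.7, 515.2 and 494.0 CPM in UT and at 4167.0, 4240.5 and 4465.1 CPM in LPS. The KO UT libraries were therefore the lowest of the 12, and the UT and LPS libraries lay far apart. Its log2 fold change with LPS was 2.65 (SE 0.0498, adjusted p = 1.86e-21) in WT and 3.09 (SE 0.0508, adjusted p = 2.07e-22) in KO, or 6.3-fold and 8.5-fold.

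Tnfrsf1a, the death domain receptor, ranged from 60.9 to 63.1 CPM in WT UT, from 59.7 to 62.8 CPM in KO UT, from 166.3 to 173.3 CPM in WT LPS and from 162.5 to 181.9 CPM in KO LPS. It rose 2.71-fold in WT (log2 1.44, SE 0.0566, adjusted p = 8.51e-16) and 2.77-fold in KO (log2 1.47, SE 0.0568, adjusted p = 6.41e-16). The ratio of Tnfrsf1b to Tnfrsf1a per length was thereby 6.79, 6.66 and 6.94 in WT UT and 16.8, 15.5 and 15 in WT LPS. In KO the ratio was 5.61, 5.57 and 5.62 in UT and 17.4, 17.5 and 16.7 in LPS. The receptor balance therefore moved toward TNFR2 transcripts with LPS in both genotypes, and in UT all KO ratios lay below all WT ratios. After LPS the KO and WT ratios overlapped.

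The adaptors and the kinase split into those that LPS raised and those near their starting level. Traf1, an adaptor that binds TNFR2 together with TRAF2, stood at 21.9, 20.9 and 22.1 CPM in WT UT and at 396.6, 379.0 and 387.5 CPM in WT LPS. In KO it was at 15.6, 17.4 and 16.5 CPM in UT and at 323.7, 323.1 and 339.6 CPM in LPS. Under both conditions the highest KO library was below the lowest WT library. The rise was 17.9-fold in WT (log2 4.16, SE 0.0619, adjusted p = 4.62e-23) and 19.9-fold in KO (log2 4.32, SE 0.0634, adjusted p = 3.69e-23). Traf2, the adaptor shared by both receptors, went from a range of 17.5 to 18.0 CPM in WT UT to 98.6 to 104.6 CPM in WT LPS, a 5.72-fold rise (log2 2.52, SE 0.0645, adjusted p = 3.99e-19). In KO it went from 16.2 to 19.1 CPM to between 91.5 and 98.6 CPM, a 5.46-fold rise (adjusted p = 7.89e-19).

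Tradd, the death domain adaptor of TNFR1, was at 16.4, 18.7 and 16.1 CPM in WT UT and at 20.3, 25.5 and 20.8 CPM in WT LPS. Its KO libraries were at 21.3, 19.1 and 20.0 CPM in UT and at 19.8, 21.7 and 18.3 CPM in LPS. The WT UT group had the lowest mean, with all its libraries below those of KO UT and WT LPS and 1 above the lowest KO LPS library, and the KO groups overlapped each other. The WT rise was 1.3-fold (log2 0.38, SE 0.0937, adjusted p = 0.00113), and the KO value was -0.01 (95% interval -0.21 to 0.18, adjusted p = 0.894). With upper-quartile scaling, which moved the median of all genes by -0.18 in both LPS comparisons, the WT value of Tradd was 0.19 and missed the threshold (adjusted p = 0.0753, the highest of 20 alternatives, with a lowest of 0.000175).

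Ripk1, the kinase that also links TNFR1 to necroptosis, kept nearly the same level, at 59.0 to 60.7 CPM in WT UT and 59.8 to 64.0 CPM in WT LPS. Its log2 fold change was 0.04 in WT (95% interval -0.10 to 0.17, adjusted p = 0.634) and 0.09 in KO (-0.05 to 0.23, adjusted p = 0.219), which leaves little room for a change of the size seen in the other genes. The sign of this small WT value depended on the scaling: upper-quartile scaling gave -0.15 (adjusted p = 0.0373; from 0.0373 to 0.943 over the alternatives) and RLE scaling -0.01. Ripk1 shares 241 exon bases with Serpinb6a on the other strand, a gene with 190523 counts over all libraries against 23154 for Ripk1, and 511 with the pseudogene Gm17084 on the same strand, which had 309 counts. Whether the counting used strand is not stated, so the level of Ripk1 is less certain than those of the other 9 genes.

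The inhibitors that bind or edit ubiquitin chains rose too, and Tnfaip3 furthest of the 10 genes. Tnfaip3, which encodes A20, stood at 37.3, 33.6 and 37.3 CPM in WT UT and at 37.3, 37.0 and 32.9 CPM in KO UT. After LPS it stood at 1544.8, 1423.4 and 1427.8 CPM in WT and at 1171.8, 1183.6 and 1219.0 CPM in KO. The genotypes thus overlapped without LPS, whereas after LPS every KO library lay below every WT library. The rise was 40.6-fold in WT (log2 5.34, SE 0.0696, adjusted p = 6.06e-24) and 33.4-fold in KO (log2 5.06, SE 0.069, adjusted p = 1.17e-23). Tnip1, which encodes ABIN1, was at 40.8, 39.9 and 37.7 CPM in WT UT and at 381.9, 343.3 and 347.4 CPM in WT LPS. Its KO libraries were at 34.1, 32.5 and 32.2 CPM in UT and at 318.6, 315.9 and 319.1 CPM in LPS. KO lay below WT in both conditions without overlap, and Tnip1 rose 9.06-fold in WT and 9.64-fold in KO (log2 3.18 and 3.27, SE 0.0607 and 0.0615, adjusted p = 2.47e-21 and 1.82e-21).

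The survival genes rose as well. Cflar, whose product competes with caspase-8 in the death-inducing complex, was at 81.5, 88.3 and 88.9 CPM in WT UT and at 1289.8, 1148.9 and 1087.0 CPM in WT LPS. In KO it was at 71.3, 72.6 and 74.4 CPM in UT and at 1137.5, 1101.1 and 1177.2 CPM in LPS. Cflar rose 13.6-fold in WT and 15.6-fold in KO (log2 3.77 and 3.97, adjusted p = 6.61e-22 and 3.39e-22). Birc3 was at 84.7, 93.4 and 88.6 CPM in WT UT and at 387.3, 358.1 and 338.1 CPM in WT LPS. Its KO libraries were at 76.2, 76.5 and 76.8 CPM in UT and at 355.3, 362.7 and 368.9 CPM in LPS. For both genes the KO libraries lay below the WT libraries in UT, and the genotypes overlapped after LPS. Birc3 rose 4.06-fold in WT and 4.74-fold in KO (log2 2.02 and 2.24, adjusted p = 4.57e-18 and 8.36e-19).

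**Figure D2:**
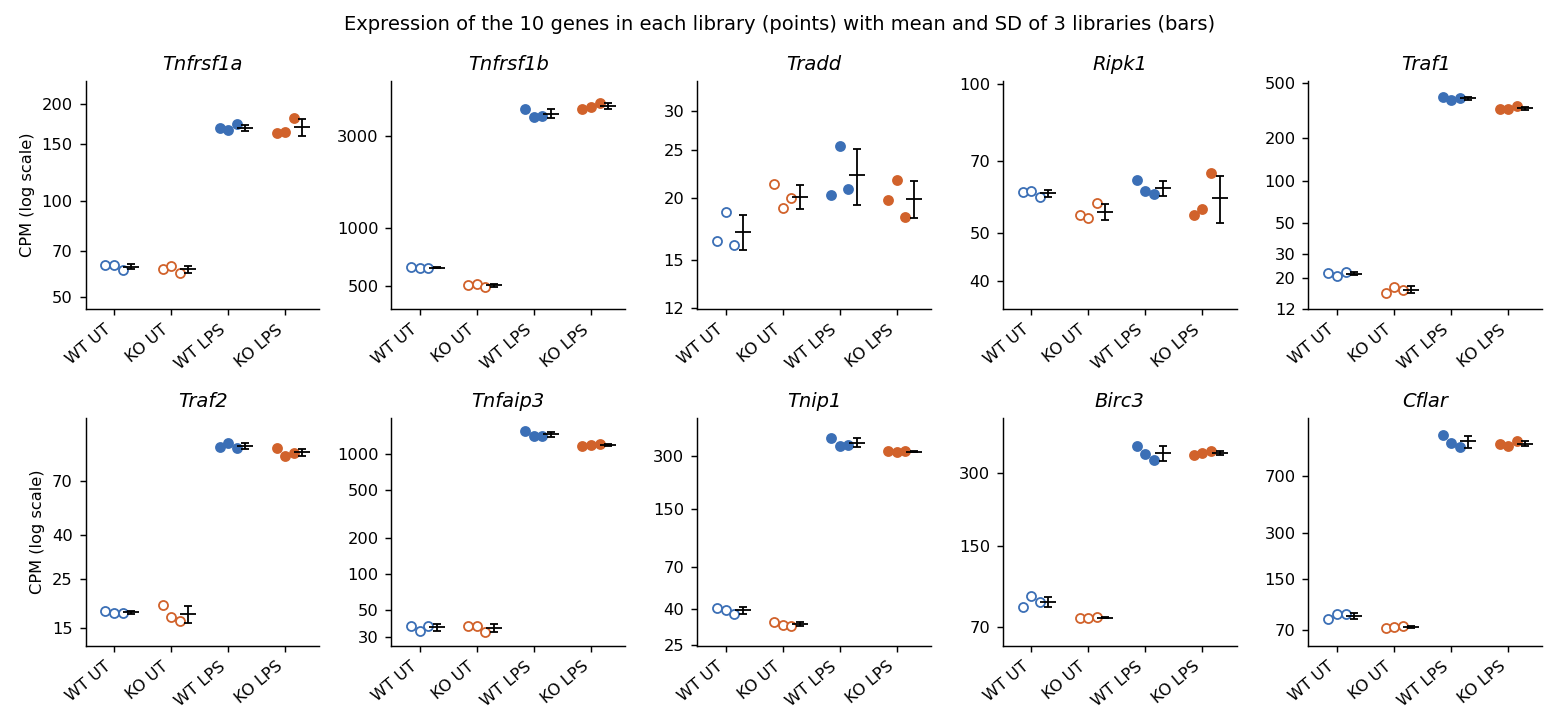
CPM (log axis, with a different range in each panel) of each of the 10 genes in every library, open points UT and filled points LPS, blue WT and orange KO, with the mean and SD of 3 libraries beside them. After LPS the KO points of Traf1, Tnfaip3 and Tnip1 lie below all WT points, and Ripk1 and Tradd show no step of the size seen in the other panels.

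**Figure D3:**
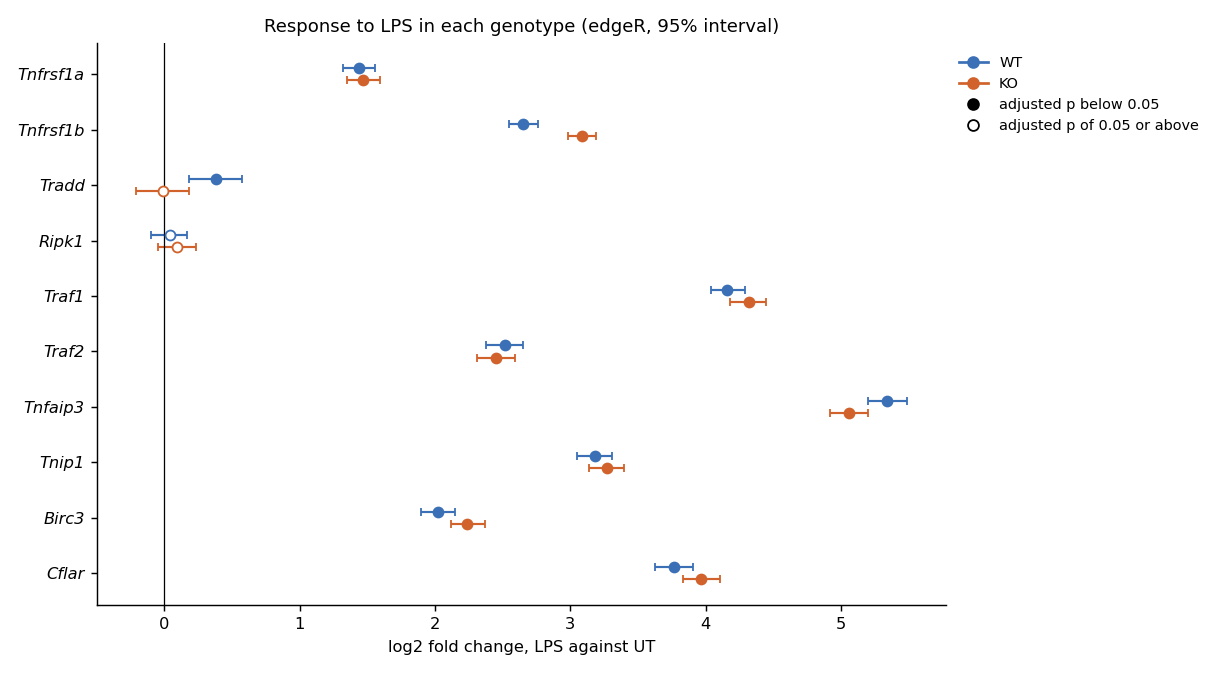
Log2 fold change of LPS against UT in WT (blue) and KO (orange) with 95% intervals from edgeR, filled where the adjusted p was below 0.05. Tnfaip3 has the highest values, 5.34 in WT and 5.06 in KO, Ripk1 lies at 0.04 and 0.09, and the intervals of Tnfrsf1b, centred on 2.65 and 3.09, do not overlap.

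Without LPS, KO cells had less of 5 of the 10 transcripts. Tnfrsf1b, Traf1, Tnip1, Cflar and Birc3 passed the test and were lower, and 0 were higher, against 9.69% of all genes tested lower and 14.1% higher. None of the 10 was past an absolute log2 fold change of 1, which 1.82% of all genes tested were. The median over the 10 genes was -0.17, and that of all genes 0.00. Traf1 had the largest difference, with a log2 fold change of -0.39 (SE 0.061, adjusted p = 5.95e-05) and within-batch values of -0.49 to -0.26. Tnfrsf1b was 1.24-fold lower (log2 -0.31, SE 0.047, adjusted p = 4.97e-05), with -0.33 to -0.26 within batches.

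Tnip1 differed by -0.26 (SE 0.0591, adjusted p = 0.00243), Cflar by -0.25 (SE 0.0612, adjusted p = 0.00497) and Birc3 by -0.22 (SE 0.0582, adjusted p = 0.00867) on the log2 scale. Each of them was lower in KO within all 3 batches, as it had to be with every KO library below every WT library. Birc3 alone of the 5 depended on a single library: without WT UT replicate 2 its value was -0.18 and the adjusted p 0.0648, the highest of 20 alternatives, with a lowest of 1.31e-05. The other 5 genes did not pass. Ripk1 was at -0.12 (adjusted p = 0.198), although its KO libraries, at 53.7 to 57.5 CPM, lay below all WT libraries, and it passed under DESeq2 (-0.19, adjusted p = 0.0232) and RLE scaling (0.0292), with 0.0232 to 0.401 over its alternatives. Tradd was the gene with a positive value, 0.24 (SE 0.0914, adjusted p = 0.065), with all KO libraries above all WT libraries. It passed without WT UT replicate 2 (0.31, adjusted p = 0.0391) and without WT LPS replicate 1, 2 or 3 (adjusted p = 0.0379, 0.0439 and 0.0496), with 0.0235 to 0.219 over its alternatives. Tnfrsf1a, Traf2 and Tnfaip3 were at -0.03, -0.03 and -0.01, each with an interval within -0.17 and 0.11.

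The KO UT libraries differed from WT UT in composition, as given above: small structured RNAs took 8.04 to 9.14% of counts against 4.30 to 4.48%, and neutrophil markers summed to 42.6 to 48.1 CPM against 20.5 to 22 CPM. Most of the neutrophil sum was S100a8 (16.4 against 7.32 CPM) and S100a9 (25.5 against 11 CPM), and of the 6 markers tested these, Camp (0.863 against 0.206 CPM) and Mpo (0.393 against 0.0509 CPM) were higher, while Ltf (adjusted p = 0.847) and Ngp (adjusted p = 0.23) did not pass. Their part in the differences of the 5 genes was not tested. With protein-coding genes only the same count of 5 genes was lower, and Tradd was called higher (0.24, adjusted p = 0.0496).

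After LPS, KO cells had less Tnfaip3, Traf1 and Tnip1. These 3 of the 10 genes were lower and 0 higher, against 6.54% of all genes tested lower and 7.78% higher, and again none was past an absolute log2 fold change of 1, which 1.25% of all genes tested were. The median over the 10 genes was -0.08, and that of all genes -0.01. Tnfaip3 was 1.23-fold lower in KO (log2 -0.30, SE 0.0572, adjusted p = 0.00133), with -0.40, -0.27 and -0.23 in batches 1, 2 and 3. Traf1 was 1.18-fold lower (log2 -0.24, SE 0.0534, adjusted p = 0.00485), with -0.29 to -0.19 within batches. Both remained past the threshold in all 20 alternatives.

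Tnip1 was 1.12-fold lower (log2 -0.17, SE 0.0552), close to the threshold (adjusted p = 0.0442). With the replicate number as a block its adjusted p was 0.0623, and the fits that each left out 1 library kept the call only without WT LPS replicate 2 (0.0488) or 3 (0.0384). Without any 1 of the other 10 libraries it ranged from 0.0503 to 0.109, and over all 20 alternatives from 0.0083 to 0.186. Its within-batch values were -0.26, -0.12 and -0.12.

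Tnfrsf1b was the gene with the highest value after LPS, 0.13 (SE 0.0468, 95% interval 0.03 to 0.22), which did not pass (adjusted p = 0.0761). Every KO library was above every WT library, though in batch 1 only by 0.00 on the log2 scale, and without WT LPS replicate 1 the value was 0.17 with an adjusted p of 0.00301. Over 20 alternatives the adjusted p ranged from 0.00301 to 0.256. Tradd (-0.15, adjusted p = 0.314), Traf2 (-0.09, 0.323), Ripk1 (-0.07, 0.567) and Cflar (-0.05, 0.664) did not pass. Tnfrsf1a and Birc3 were both at 0.00, with a 95% interval of -0.11 to 0.12 each, so that a difference as large as that of Tnfaip3 lay outside their intervals. WT LPS replicates differed among themselves in the share of small structured RNAs (4.97 to 7.71%), and KO LPS libraries lay at 4.33 to 4.43%; the part of this in the differences was not tested. For scale, Tnf differed by -1.04 (adjusted p = 2.76e-10) in the same comparison.

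**Figure D4:**
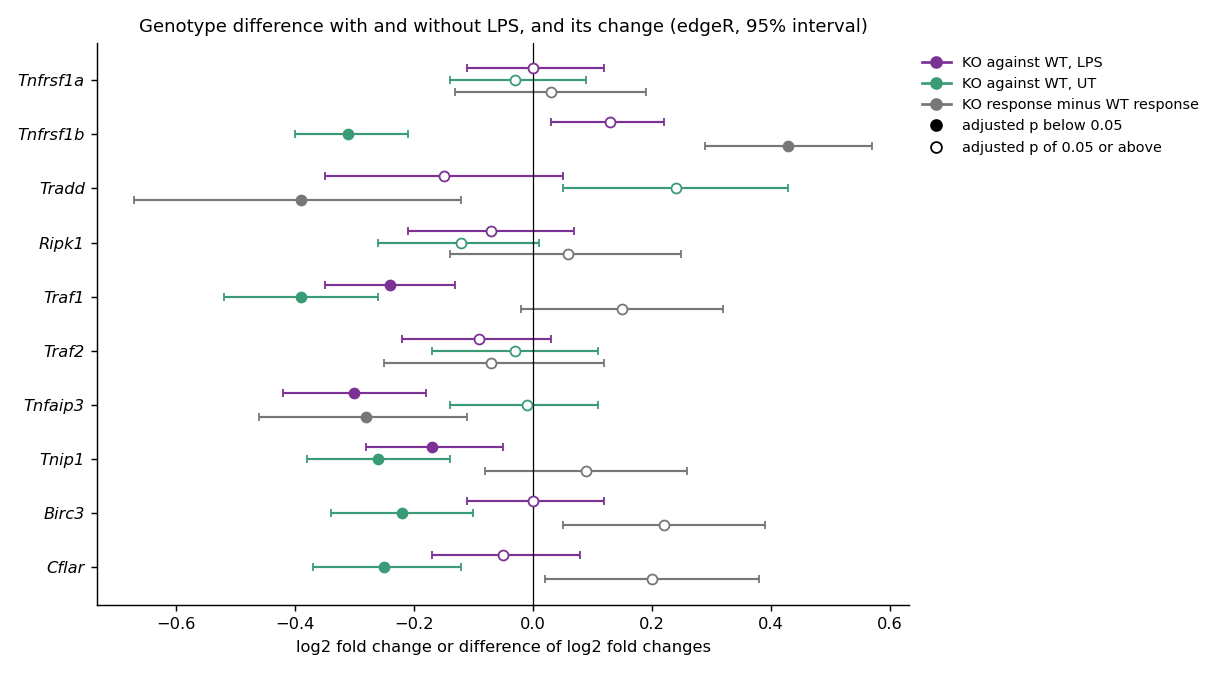
Log2 fold change of KO against WT after LPS (purple) and in UT (green), and the KO response to LPS minus the WT response (grey), with 95% intervals from edgeR, filled where the adjusted p was below 0.05. Tnfrsf1b goes from -0.31 in UT to 0.13 after LPS, Tnfaip3 from -0.01 to -0.30, and Tradd has the widest intervals.

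The LPS responses of the genotypes were compared directly, by the KO response minus the WT response, which uses the same libraries as the comparisons above. It passed the test for 3 of the 10 genes, 1 with a positive and 2 with a negative difference, against 7.32% of all genes tested positive and 9.5% negative. The response of Tnfrsf1b was larger in KO, by 0.43 (SE 0.0664, adjusted p = 0.00016), with 0.32, 0.43 and 0.55 in the 3 batches. The response of Tnfaip3 was smaller in KO, with a difference of -0.28 (SE 0.0841, adjusted p = 0.0237), with -0.40, -0.40 and -0.05 in batches 1, 2 and 3. The response of Tradd was smaller in KO too, at -0.39 (SE 0.132, adjusted p = 0.0471), with -0.50 to -0.27 within batches.

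Only the Tnfrsf1b difference passed in every one of its 19 alternatives. That of Tnfaip3 missed the threshold without KO LPS replicate 1 (adjusted p = 0.0591), KO UT replicate 1 (0.0765), KO UT replicate 2 (0.073) or WT UT replicate 2 (0.0869), and ranged from 0.00697 to 0.0904 over its alternatives. That of Tradd missed it without 8 of the 12 libraries in turn, the exceptions being KO LPS replicate 2, WT LPS replicates 1 and 3 and WT UT replicate 2, with 0.0114 to 0.168 over its alternatives. The direction of the calls depended on the scaling as well. With DESeq2, and equally with RLE scaling in edgeR, 4 genes had a larger and 0 a smaller response in KO: Tnfrsf1b, Traf1, Birc3 and Cflar. Those settings moved the median of all genes by 0.08 in this comparison and gave Tnfaip3 -0.20 and Tradd -0.31, with neither past the threshold. Birc3 (0.22, adjusted p = 0.0692), Cflar (0.20, 0.119) and Traf1 (0.15, 0.222) did not pass in the main test, and without WT LPS replicate 1 Birc3 (0.27, adjusted p = 0.0056) and Cflar (0.27, 0.00388) did, where their alternatives ranged from 0.00233 to 0.188 and from 0.00388 to 0.243.

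The wider pathway was followed in 83 other genes, of which 76 passed the filter on low counts. The 7 left out were all receptors of other ligands: Cd27, Ngfr, Edar, Tnfrsf13c, Tnfrsf17, Tnfrsf19 and Tnfrsf25. In WT, LPS raised 53 (69.7%, against 38.0% of all genes tested) and lowered 13 (17.1%, against 35.3%) of the 76, with a median of 0.71 where that of all genes was 0.05. In KO it raised 51 (67.1%, against 35.1%) and lowered 14 (18.4%, against 37.7%), with a median of 0.74 against -0.06. KO cells differed from WT cells after LPS in 16 of them, 6 higher (7.89%, against 7.78% of all genes tested) and 10 lower (13.2%, against 6.54%), and without LPS in 20, 4 higher (5.26%, against 14.1%) and 16 lower (21.1%, against 9.69%). Without WT LPS replicate 1 the count after LPS was 15 higher and 9 lower. Their median genotype difference was -0.01 after LPS and -0.09 in UT. The difference of the responses passed for 13 of them, 10 positive (13.2%, against 7.32% of all genes tested) and 3 negative (3.95%, against 9.5%). These counts include Tnf, downstream of the deletion, which was lower after LPS and in UT and had a negative difference. Lta, another ligand gene, is among those lower after LPS.

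Among the genes of receptor and ligand shedding, 2 of 5 were higher and 1 lower in KO after LPS, where 7.78% of all genes tested were higher and 6.54% lower. Adam17, the protease that releases TNF and its receptors from the cell surface, went from 653.9 ± 50.5 CPM in WT LPS to 797.2 ± 23.7 CPM in KO LPS (log2 0.29, adjusted p = 0.00145). Timp3, an inhibitor of that protease, stood at 2.47 ± 0.475 against 6.9 ± 0.837 CPM (log2 1.47, adjusted p = 1.3e-05). The stromal markers Col1a1 (1.40, adjusted p = 0.029), Col1a2 (1.19, 0.00655), Col3a1 (1.49, 0.0108) and Dcn (1.58, 0.0181) were higher in the same comparison. Their levels were low, from 0.291 to 1.05 CPM in WT LPS and from 0.788 to 2.43 CPM in KO LPS. Of the other stromal markers, Pdgfrb (-0.01, adjusted p = 0.968) and Pdgfra (0.63, 0.515) did not pass, and Lum was not tested. The part of stromal cells in the Timp3 difference was not tested. Adam17 and Timp3 also had a larger response to LPS in KO, by 0.32 (adjusted p = 0.00693) for Adam17 and 1.05 (adjusted p = 0.00731) for Timp3. Rhbdf2, which encodes a partner that ADAM17 needs to mature, rose 3.20 on the log2 scale with LPS in WT and was lower in KO both after LPS (-0.22, adjusted p = 0.017) and in UT (-0.21, adjusted p = 0.0247). Rhbdf1, its low-abundance relative, had log2 changes with LPS of -0.73 in KO (adjusted p = 0.0227) and -0.63 in WT (adjusted p = 0.0556), and these did not pass the test of their difference (-0.10, adjusted p = 0.906).

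Among the 19 genes of linear ubiquitin and ubiquitin enzymes, 16 rose with LPS (84.2%, against 38.0% of all genes tested in WT and 35.1% in KO) and 1 fell in each genotype. After LPS 3 of them were higher in KO and 3 lower (15.8% each, against 7.78% and 6.54%). Rnf31, the catalytic subunit of the linear ubiquitin ligase, was at 126.0 ± 4.0 CPM in WT LPS and 98.6 ± 2.34 CPM in KO LPS (log2 -0.35, adjusted p = 0.000526), and it was lower in KO UT as well (-0.30, adjusted p = 0.00193). Tnip3, a relative of Tnip1, had the largest LPS response of this list (log2 3.81 in WT), was lower in KO after LPS (-0.20, adjusted p = 0.0107) and had a smaller response in KO (-0.28, adjusted p = 0.00957). Xiap, an inhibitor of caspases, was higher in KO after LPS (0.28, adjusted p = 0.0233) and had a larger response (0.45, adjusted p = 0.0084), as did Usp4, a deubiquitinase (0.32, adjusted p = 0.00601). Otulin, which cleaves linear chains, fell with LPS by 0.45 in WT and was higher in KO UT (0.23, adjusted p = 0.00502).

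Of the 21 genes of the kinase module, 0 were higher and 1 lower (4.76%) in KO after LPS, against 7.78% and 6.54% of all genes tested. In UT 1 was higher (4.76%, against 14.1%) and 2 lower (9.52%, against 9.69%), so none of these shares was above that of all genes. Map3k5, which encodes the stress kinase ASK1, was the gene lower after LPS (-0.24, adjusted p = 0.00459). In UT the MAP kinase kinase gene Map2k3 was lower (-0.21, adjusted p = 0.0104) and Mapk9, encoding a JNK, was higher (0.37, adjusted p = 0.000113). LPS raised 13 genes of this list in WT (61.9%, against 38.0%), with Ikbke highest (log2 3.14), and lowered 5 (23.8%, against 35.3%), with Map3k14, the kinase of the non-canonical NF-kappaB pathway, lowest (-1.26). Mapk14, encoding p38 alpha, had a log2 change with LPS of -0.50 in KO and -0.81 in WT (difference 0.31, adjusted p = 0.0197).

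In the death module of 9 genes, 4 were lower in KO UT (44.4%, against 9.69% of all genes tested) and 4 had a positive difference of the responses, KO minus WT (44.4%, against 7.32%). The UT libraries enter both comparisons, so the values are given side by side. Zbp1, a nucleic acid sensor upstream of necroptosis, stood at 52.6 ± 2.96 CPM in WT UT, 31.6 ± 1.14 CPM in KO UT, 583.2 ± 20.4 CPM in WT LPS and 557.3 ± 10.9 CPM in KO LPS. Its difference was -0.74 in UT (adjusted p = 1.18e-08), -0.07 after LPS (adjusted p = 0.464) and 0.67 between the responses (adjusted p = 1.08e-05). Ripk3, the necroptosis kinase that RIPK1 binds, differed by -0.54 in UT (adjusted p = 5.21e-05) and 0.38 between the responses (adjusted p = 0.0326). Mlkl, the executor of necroptosis, differed by -0.33 in UT (adjusted p = 0.000502) and 0.38 between the responses (adjusted p = 0.00313). Madd, a death domain protein that binds TNFR1, differed by -0.26 in UT (adjusted p = 0.000791) and 0.24 between the responses (adjusted p = 0.0382). Fadd, which encodes the adaptor that links death domains to caspase-8, was at 4.49 CPM in WT UT and 2.2 CPM in WT LPS and had the largest fall with LPS (-1.01, adjusted p = 0.000242).

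Of the 19 other receptors of the family that were tested, 11 rose (57.9%, against 38.0% of all genes tested) and 5 fell (26.3%, against 35.3%) with LPS in WT. In KO 8 rose (42.1%, against 35.1%) and 5 fell (26.3%, against 37.7%). Cd40 had the largest response of them, from 6.75 to 1506.9 CPM in WT (log2 7.80) and from 8.63 to 1515.4 CPM in KO (log2 7.45), and its response was smaller in KO (-0.35, adjusted p = 0.00841). Tnfrsf21, another receptor with a death domain, fell most (log2 -2.80 in WT). After LPS the receptor genes Tnfrsf9 (0.93, adjusted p = 7.5e-06) and Tnfrsf26 (-0.57, adjusted p = 0.0253) had the largest rise and fall in KO, and in UT these were Tnfrsf12a (0.65, adjusted p = 0.00168) and Tnfrsf23 (-0.65, adjusted p = 0.00203). Tnfrsf14, the receptor of LIGHT, had a larger response in KO (0.34, adjusted p = 0.00568). It was lower in KO UT (-0.32, adjusted p = 0.000325) and did not pass after LPS (0.02, adjusted p = 0.851). Of the 3 ligand genes of the list, 2 were lower in KO after LPS, where 6.54% of all genes tested were, namely Tnf and the low-abundance Lta (0.912 ± 0.218 CPM in WT LPS, 0.162 ± 0.0433 CPM in KO LPS, log2 -2.47, adjusted p = 0.0087). Tnf also had a smaller response to LPS in KO (-0.38, adjusted p = 0.00763).

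**Figure D5:**
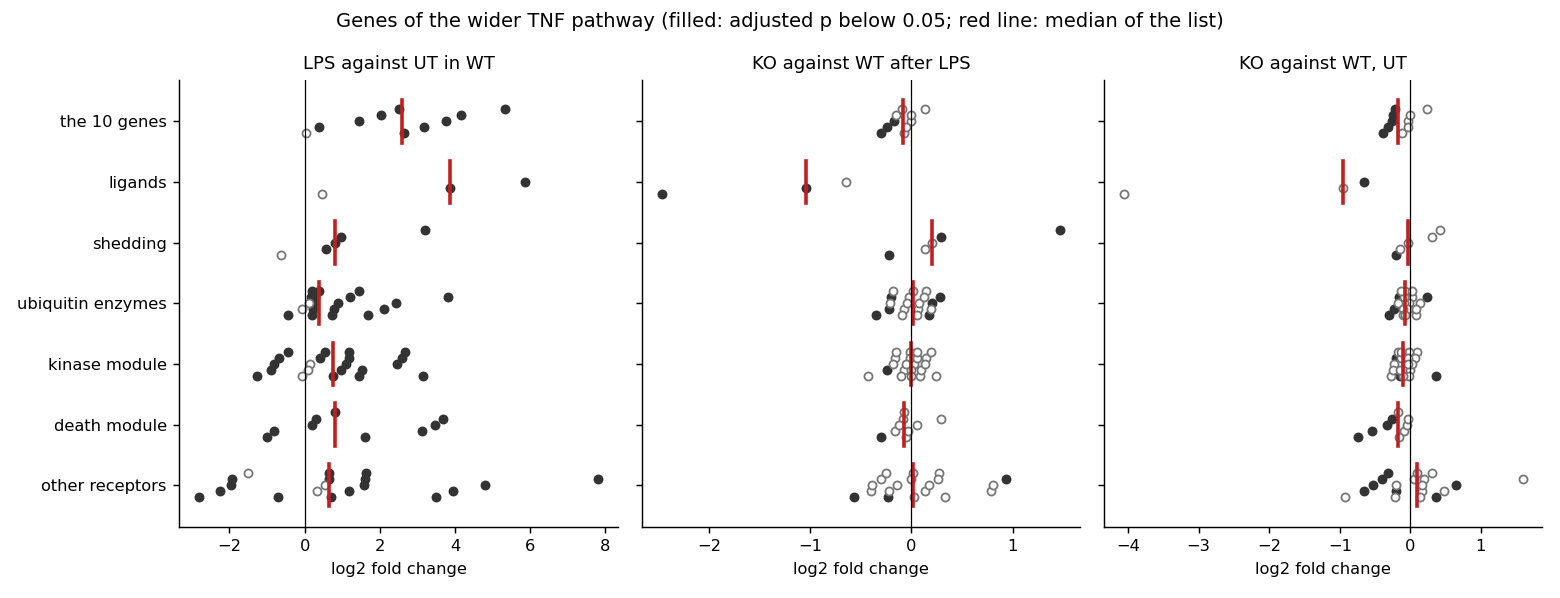
Log2 fold changes of the 10 genes and of the 76 other pathway genes by list, for LPS against UT in WT (left), KO against WT after LPS (middle) and KO against WT in UT (right). Points are genes, filled where the adjusted p was below 0.05, and red lines are list medians, with 2.59 for the 10 genes on the left. The leftmost ligand point on the right is Lta, at 0 counts in every KO UT library, so its place is a fitted value and no measure of fold.

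For each of the 10 genes the protein-coding gene with the most similar profile was found by Pearson's r of log2 CPM over the 12 libraries, among 9084 genes whose CPM averaged 5 or more. The libraries fall into UT and LPS clusters, which any pair of LPS-induced genes shares, so the values are given as a description. Tnfaip3 was nearest to Malt1 (r = 0.9995), Tnip1 to Dusp16 (r = 0.9997), Traf1 to Pfkfb3 (r = 0.9996) and Traf2 to Aldh1b1 (r = 0.9992). Tnfrsf1b was nearest to Igtp (r = 0.9996), Cflar to Gbp5 (r = 0.9998), Birc3 to Tut7 (r = 0.9998) and Tnfrsf1a to Socs3 (r = 0.9986). Tradd and Ripk1 had looser neighbours, Rrp9 at r = 0.8928 and Nepro at r = 0.8983.

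The 10 genes are spread over the genome (GRCm38), and all are annotated as protein coding. Tnfaip3 (ENSMUSG00000019850.11) lies at chr10:19000910-19015657, Tnip1 (ENSMUSG00000020400.17) at chr11:54910785-54962917 and Tnfrsf1b (ENSMUSG00000028599.10) at chr4:145213463-145246870, each on the minus strand. Traf1 (ENSMUSG00000026875.14) at chr2:34941750-34961772 and Traf2 (ENSMUSG00000026942.13) at chr2:25517982-25546940 share a chromosome and a strand. Tnfrsf1a (ENSMUSG00000030341.17) lies at chr6:125349362-125362484, Tradd (ENSMUSG00000031887.13) at chr8:105258286-105264609 and Ripk1 (ENSMUSG00000021408.14) at chr13:34002363-34037147. Birc3 (ENSMUSG00000032000.17) lies at chr9:7848699-7873186 and Cflar (ENSMUSG00000026031.15) at chr1:58711508-58758884. None of the 10 is on the chromosome of Tnf.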

How the data were processed

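Total RNA of 12 BMDM libraries (HSS9 KO and WT, UT and LPS, 3 each) was used. The authors prepared stranded libraries with globin depletion, aligned reads to GRCm38 with HISAT2 2.1.0 and counted them per gene with featureCounts 2.0.0, and the deposited table holds these raw counts. Not stated are the annotation release, whether strand was used and how multi-mapping reads were handled. Gene symbols and exon lengths came from GENCODE on GRCm38, matched by identifier without its version (48144 of 48526 genes). Testing used edgeR 4.0.16 on the counts, by quasi-likelihood (limma 3.58.1, R 4.3.3) with TMM scaling, after filterByExpr (minimum count 10, total 15), in one model of 4 group means over all 12 libraries, with p-values adjusted over 15523 genes by the Benjamini-Hochberg method. The scripts were tested on simulated data. Library totals of 26154533 to 36423921 counts and the 3 libraries per group set the precision.

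The members and the gene lists were chosen with earlier results of these data known. The genes named are the 10 members, Tnf, genes overlapping a member, the nearest profile of each member, each list's largest rise and fall among passing genes averaging 1 CPM or more, every listed gene passing in the difference of the responses and, chosen after their values were seen, the 7 receptors that were filtered out, the stromal and neutrophil markers and Lta. A gene that this rule would name is not reported here. Level per length is TMM-scaled CPM per kb of merged exons. Same-numbered libraries share a batch by label. Their deviations from group means correlated between -0.0631 and 0.0373 over 18 pairs. Replicates differed by more than counting noise. Alternatives were DESeq2 1.42.0, RLE and upper-quartile scaling, no filter, a filter at an average of 1 CPM, a replicate block, protein-coding genes only, fits restricted to the groups compared and fits without each library. NF-kappaB (kappaB consensus) and AP-1 matches were sought on both strands of RefSeq start sequences. Figures used matplotlib 3.10.9 in Python 3.11.15.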

Additional observations from a re-analysis of the deposited data

Results flagged for a closer look

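The response to LPS differed between KO and WT cells, by the test of the difference itself, for 3 of the 10 genes. The KO response of Tnfrsf1b was 0.43 larger as a log2 value (adjusted p = 0.00016 in edgeR), and larger in all 3 batches. That sign was fixed, since its KO libraries all lay below WT in UT and above WT after LPS. The KO response of Tradd was smaller, with a difference of -0.39 (adjusted p = 0.0471), and so was that of Tnfaip3, at -0.28 (adjusted p = 0.0237), again with the same sign in all 3 batches. For Tnfrsf1b the UT libraries of the genotypes differed (-0.31) more than the LPS libraries (0.13), whereas for Tnfaip3 the LPS libraries differed (-0.30) and the UT libraries did not pass (-0.01). The Tradd and Tnfaip3 differences missed the threshold with RLE scaling and with DESeq2.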

How the results depend on the processing

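Over the 10 genes and 5 comparisons, 902 values kept their direction and side of the threshold under the alternatives. With the sign kept, 33 fell short of it and 20 newly passed. Another 35 changed sign, none of them a value that had passed the main test. Of these, only Ripk1 with LPS in WT came to pass, under upper-quartile scaling in edgeR (-0.15, adjusted p = 0.0373). Beyond the member counts already given, the count of other pathway genes passing was 34 with DESeq2 and 32 with RLE scaling in UT (20 in the main test), and 21 with DESeq2 for the difference of the responses (13). Leaving out 1 library gave 8 to 24 such genes after LPS (16), with 8, 9 and 10 without KO LPS replicate 1, KO LPS replicate 3 and WT LPS replicate 2 and 24 without WT LPS replicate 1, and 21 for the difference of the responses without WT LPS replicate 1. The number of members whose responses differed ranged from 1, without KO LPS replicate 1, KO UT replicate 1 or KO UT replicate 2, to 5, without WT LPS replicate 1 (3). The replicate block changed no call of a member other than Tnip1 after LPS.

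Sign changes concerned values near 0. After LPS, KO against WT, Tnfrsf1a and Birc3 were each at -0.02 with upper-quartile scaling, -0.01 with the filter at an average of 1 CPM and -0.03 with protein-coding genes only. The LPS value of Ripk1 in WT was -0.01 with DESeq2, RLE scaling or no filter, -0.02 with the compared groups only and -0.15 with upper-quartile scaling, which gave -0.09 in KO. Tradd in KO was at 0.02 with DESeq2, RLE scaling and protein-coding genes only. For the difference of the responses Tnfrsf1a was at -0.01 with protein-coding genes only and Traf2 at 0.01 with DESeq2 and RLE scaling. With 1 library left out, the ranges were -0.05 to 0.03 (Tnfrsf1a), -0.04 to 0.06 (Birc3) and -0.10 to 0.03 (Cflar) after LPS, -0.10 to 0.02 (Traf2) and -0.06 to 0.04 (Tnfaip3) in UT, -0.08 to 0.04 (Tradd) and -0.00 to 0.15 (Ripk1) for LPS in KO, and -0.02 to 0.06 (Tnfrsf1a), -0.04 to 0.11 (Ripk1) and -0.12 to 0.01 (Traf2) for the difference of the responses. The cause of these changes was not tested. No member had fewer than 442 counts in a library.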
